A study of Homo sapiens with 12 samples.

Results

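AP-1 is a dimer of basic leucine zipper proteins that binds DNA at short palindromic sites. The genes described here are 10 of the 58174 in each table, and were chosen by symbol, with no expression value in the rule: the FOS family (FOS, FOSB, FOSL1, FOSL2), the JUN family (JUN, JUNB, JUND), and 3 related zipper genes (ATF3, MAFF, BATF3). The choice was made with earlier results of these data known. All 10 symbols matched a single Ensembl identifier in the U87 table and in the U118 table. The mRNA-seq covered U-87 MG and U-118 MG, which are established human glioblastoma cell lines written U87 and U118 below. Each line had 3 libraries of sensitive cells and 3 of resistant cells, 12 in all. The resistant cells came out of continuous exposure to temozolomide (TMZ), an alkylating drug, at 50 µM. The paper's results place their return to division after the TMZ period. The time from the drug to the RNA harvest is not stated for these libraries. According to the study's methods, cells negative for CD133 and CD15 were sorted first and kept in serum with BMP2, and the resistant cells grew as aggregations from the few cells that resumed division, so a resistant line may descend from a small number of founders.

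JUN proteins pair with each other or with FOS proteins, whereas FOS proteins need a JUN partner to bind DNA. The pair binds sites found near many genes of proliferation, matrix breakdown, inflammation and stress, and the family is known for its fast and often brief induction through MAP kinases. FOSL1 is known in glioblastoma as a factor of the mesenchymal state. ATF3 is induced by stress and often represses transcription, MAFF is a small MAF protein without a transactivation domain that pairs with other zipper proteins, and BATF3 pairs with JUN proteins and is best known from dendritic cells.

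The values are TPM, which divide out the length of a transcript and sum to the same total in each library. They keep no read depth, so the spread between libraries is the only error available. The labels give no separate cultures, so p-values measure only the spread between these samples, which may be technical. Rank correlations between libraries of 1 group lay between 0.962 and 0.986. The 3 libraries labelled U118 resistant correlated at 0.821 to 0.845 with U118 sensitive libraries and at 0.902 to 0.918 with U87 libraries, so they resembled the other line more than their own. PDGFRA, a receptor gene of some glioblastoma cells, likewise read 71.8 to 88.3 TPM in U118 sensitive libraries, 0.07 to 0.10 TPM in U118 resistant libraries and at most 0.31 TPM in U87. THY1 and ITGA2 went the other way. THY1 read 213 to 459 TPM in U118 sensitive and 51.2 to 103.5 TPM in U118 resistant libraries, but at most 0.13 TPM in U87. ITGA2 read 10.7 to 18.25 and 8.17 to 15.1 TPM in those U118 groups and 0.58 to 1.43 TPM in U87. Single genes thus went both ways, and the identity of the U118 resistant cells as U118 remains in doubt and was not tested. Every U118 comparison below is one between the libraries so labelled, in which another origin of the cells and a change after the drug cannot be told apart. Mitochondrial transcripts took 12.9 to 16.9% of TPM in U87 sensitive and 22.2 to 23.7% in U87 resistant libraries. In U118, sensitive replicate 3 (19.8%, against 7.42% and 8.55%) and resistant replicate 1 (13.2%, against 29.9% and 26.1%) stood apart from their groups, and their removal is given where it changed a result.

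VIM (4425 to 7149 TPM) and CD44 (311 to 868 TPM) were high in all 12 libraries. The glial genes SOX2, GFAP and S100B stayed under 1 TPM in all 12. OLIG2, another glial gene, read 1.45 to 4.45 TPM in U87. In U118 it read 0 to 0.05 TPM in sensitive and 0.57 to 1.05 TPM in resistant libraries. NES read 5.76 to 24.1 TPM in all 12 libraries, and CHI3L1 34.5 to 67.0 TPM in U87 and 1.14 to 5.88 TPM in U118. Of 9 leukocyte genes, 2 passed the filter in each line: CD68, at 170 to 379 TPM over all libraries, and CSF1R, which was called higher in U118 (1.34 to 1.43 TPM in sensitive and 9.47 to 15.2 TPM in resistant libraries). The summed leukocyte level was 292 to 345 and 208 to 247 TPM in U87 sensitive and resistant libraries, and 173 to 319 and 314 to 391 TPM in U118, while PTPRC, CD3E and AIF1 were at or near 0. The 6 endothelial genes summed to 1.86 to 4.74 TPM in every library, with CDH5 at or near 0, TEK called higher (1.58) and KDR called lower (-1.07) in U118. Of the 10 fibroblast and mural genes, 6 passed the filter in U87 and 4 of them were called higher, with a summed level of 487 to 497 TPM in sensitive and 805 to 874 TPM in resistant libraries. In U118, 9 passed, with 1 called higher and 6 lower, and the sum went from 1246 to 1646 TPM in sensitive to 428 to 806 TPM in resistant libraries. DCN was at 0 in the 3 U87 sensitive libraries. Fewer cells of a type and less RNA per cell cannot be told apart in such bulk samples, and the part of these markers in the AP-1 values was not tested.

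AP-1 genes are themselves among the genes with AP-1 sites, so their promoters were read for such sites. RefSeq promoters (GRCh38.p14, 250 bases before to 50 after a transcription start) had entries for 8 of the 10 genes, 10 entries in all. They were searched on both strands for TGACTCA, the classical AP-1 site, for TGACGTCA, the site of CREB and ATF proteins, and for TGACATCA, the variant known from the JUN promoter. These motifs do not contain one another. Among all 35116 promoter entries, 4.95% held TGACTCA, 1.85% held TGACGTCA and 2.61% held TGACATCA. The 4 windows below, which carry a site in the promoter of a gene that changed in at least 1 line, are shown on the strand of the gene, with the motif in capitals. The JUN window is chr1:58784071-58784150 on the minus strand, with the motif at position -67 from the start. The JUND window is chr19:18281779-18281858 on the minus strand, with the motif at -200. The ATF3 window is chr1:212565248-212565327 on the plus strand, with the motif at -123. The MAFF window is chr22:38201904-38201983 on the plus strand, with the motif at -54.
JUN: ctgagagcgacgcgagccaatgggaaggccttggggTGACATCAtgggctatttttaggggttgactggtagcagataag
JUND: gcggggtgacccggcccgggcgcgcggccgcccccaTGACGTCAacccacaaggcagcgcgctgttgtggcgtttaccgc
ATF3: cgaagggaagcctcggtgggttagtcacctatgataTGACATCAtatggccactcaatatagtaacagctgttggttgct
MAFF: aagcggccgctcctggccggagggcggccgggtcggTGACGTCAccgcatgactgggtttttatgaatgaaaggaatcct

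FOSL2 held TGACTCA at position 4 after the start. The FOS, FOSB and JUNB windows, and the second window of ATF3 and of MAFF, held none of the 3 motifs. FOSL1 and BATF3 had no entry. A match is a description of letters, and no binding was measured.

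FOSL1 was by far the most abundant AP-1 transcript on this length-scaled measure. Its library ranks among all 58174 genes ran from 147 to 165 in U87 sensitive, 273 to 346 in U87 resistant, 68 to 200 in U118 sensitive and 100 to 185 in U118 resistant cells. JUN came next in every group. JUND and JUNB followed, with FOSL2 between or just below them, and the range of FOSL2 overlapped that of at least 1 of its neighbours in all 4 groups. FOS and FOSB were last in every group and their ranges overlapped in U118 sensitive cells only. ATF3 lay below MAFF in U87 sensitive cells and above it in the other 3 groups, with overlapping ranges in both U118 groups.

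The design compares resistant with sensitive cells of each labelled line, to ask what differs after the drug exposure, which for U118 is subject to the doubt on identity given above. The comparison used limma on log2(TPM + 1), over genes that reached 1 TPM in 3 or more of a line's libraries, with Benjamini-Hochberg adjustment over all of them. A gene was called at an adjusted p under 0.05 with a change of 1 or more, up or down, on the log2 scale, and a gene past the adjusted p alone is described here as higher or lower but not called. FOSB stayed under the filter in both lines and was not tested, which left 9 of the 10 genes. In U87, 1 of the 9 was called (ATF3, higher), where 10.8% of the 13845 genes tested were called, 3.03% as higher and 7.79% as lower. By the adjusted p alone, 4 were higher and 1 was lower, against 9.43% and 29.7% of all genes (39.1% together). In U118, 2 of the 9 were called (ATF3 and MAFF, both higher), where 35.3% of the 15527 genes tested were called, 8.64% as higher and 26.6% as lower. By the adjusted p alone, 5 were higher and 1 was lower, against 12.2% and 39.1% of all genes (51.3% together).

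The U87 groups did not overlap for 4 genes that were higher and 1 that was lower, against 13.6% and 39.8% of all genes. The U118 groups did not overlap for 5 higher and 1 lower, against 15.7% and 42.9%. All genes tested had a median log2 fold change of -0.24 in U87 and -0.52 in U118, and the 9 AP-1 genes had medians of 0.23 and 0.60. Values relative to that all-gene median are given below as relative changes. Under median-ratio scaling, which brings the all-gene median near 0, the calls over all genes changed from 419 higher and 1078 lower to 689 and 528 in U87, and from 1341 and 4134 to 2258 and 2113 in U118. The AP-1 genes called as higher under that scaling were 1 in U87 and 4 in U118, where JUNB and JUND joined ATF3 and MAFF.

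**Figure D1:**
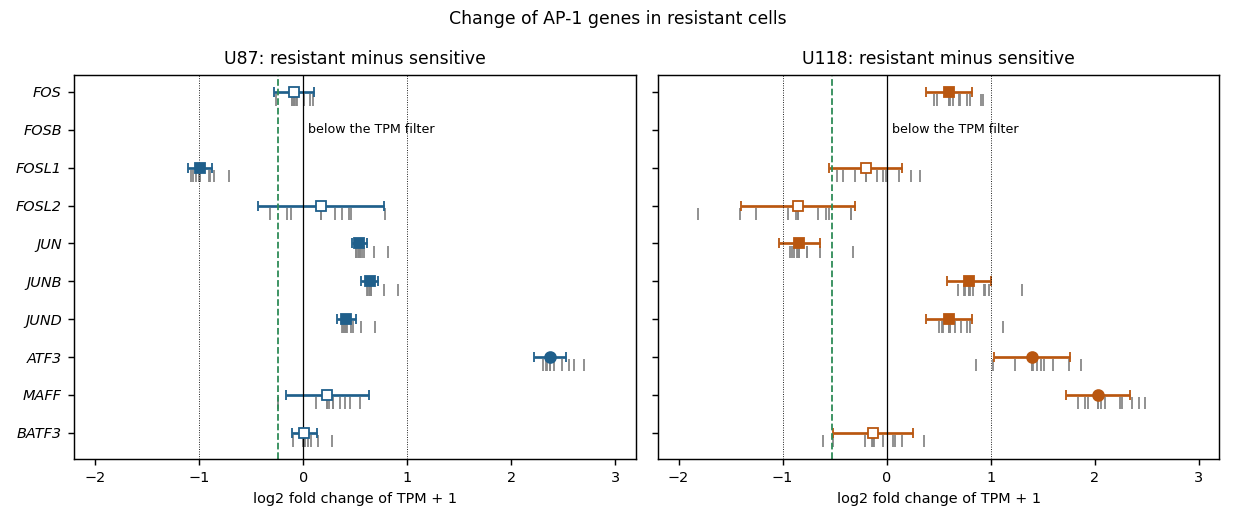
Log2 fold change of TPM + 1, resistant minus sensitive, with SE, for the AP-1 genes in U87 (left) and U118 (right). Circles are called genes, filled squares are past the adjusted p only and open squares are neither. Grey ticks are the values under the alternative settings, the dashed line is the median of all genes tested and dotted lines mark a log2 fold change of 1 in size. ATF3 stands at 2.38 in U87 and 1.40 in U118, and MAFF at 0.23 and 2.03.

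Of the FOS family, FOS itself (ENSG00000170345, GRCh38 chr14:75278774-75282230, plus strand), the founding gene of the family and the one most often used as a sign of recent stimulation, was nearly silent. In U87 it read 1.27, 2.59 and 1.99 TPM in the sensitive and 1.73, 1.79 and 1.66 TPM in the resistant libraries. The resistant libraries lay inside the range of the sensitive ones, and the log2 fold change was -0.09 ± 0.19 (SE, adjusted p = 0.752). In U118 it read 0.90, 1.28 and 1.58 TPM in the sensitive and 1.96, 2.19 and 3.12 TPM in the resistant libraries. All 3 resistant libraries were above the sensitive ones, with a log2 fold change of 0.60 ± 0.22 (adjusted p = 0.0456) and a relative change of 1.12. That p lay above 0.05 under 8 alternatives, among them the absence of a filter (0.139) and a pseudocount of 0.1 (0.0585). Without sensitive replicate 1, 2 or 3, or without resistant replicate 2 or 3, it was 0.251, 0.148, 0.0767, 0.0792 and 0.203.

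FOSB (ENSG00000125740, chr19:45467995-45475179, plus strand), a close relative of FOS with similar induction, was lower still. Its TPM were 0.44, 0.19 and 0.27 in U87 sensitive and 0.31, 0.35 and 0.27 in U87 resistant libraries. In U118 they were 0.45, 0.97 and 0.65 in the sensitive and 0.92, 1.70 and 1.86 in the resistant libraries. The groups overlapped in both lines. The gene overlaps ERCC1 on the opposite strand, without shared exons, and the strand setting of the counting is not given in the sources used here.

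FOSL1 (ENSG00000175592, chr11:65892049-65900573, minus strand) encodes FRA1, a FOS protein that lacks a strong transactivation domain. Its U87 levels were 725, 865 and 692 TPM in sensitive libraries and 381, 427 and 336 TPM in resistant ones. Every resistant library was below every sensitive one. The ratio of the means was 0.50, with a log2 fold change of -0.99 ± 0.12 (adjusted p = 0.000949) that missed the fold threshold narrowly, and a relative change of -0.75. Without sensitive replicate 1, sensitive replicate 3 or resistant replicate 2 the change was called, at -1.03, -1.06 and -1.08. In U118 the gene read 651, 772 and 1385 TPM in the sensitive and 658, 1132 and 614 TPM in the resistant libraries. Those groups overlapped, 1 library in each was far above the other 2, and the log2 fold change of -0.20 ± 0.35 (adjusted p = 0.647) turned positive under median-ratio scaling (0.32) and without the 2 libraries that stand apart (0.23).

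FOSL2 (ENSG00000075426, chr2:28392448-28417312, plus strand) encodes FRA2, the other FOS protein of this kind. Its U87 values were 16.4, 44.5 and 50.2 TPM in the sensitive and 60.1, 15.5 and 56.8 TPM in the resistant libraries. The U118 values were 90.4, 93.9 and 28.3 TPM in the sensitive and 60.7, 39.4 and 16.4 TPM in the resistant libraries. Each group held 1 library far below its highest, and the highest was 3.06, 3.89, 3.32 and 3.70 times the lowest in U87 sensitive, U87 resistant, U118 sensitive and U118 resistant cells. The log2 fold changes were 0.17 ± 0.61 in U87 (adjusted p = 0.848) and -0.85 ± 0.55 in U118 (adjusted p = 0.216). Without the 2 U118 libraries that stand apart, the U118 value was -1.81 (adjusted p = 0.00378) and the gene was called lower. Those libraries held the lowest sensitive (28.3 TPM) and the highest resistant value (60.7 TPM), so leaving them out widened the gap. Their removal was chosen after the data were seen.

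**Figure D2:**
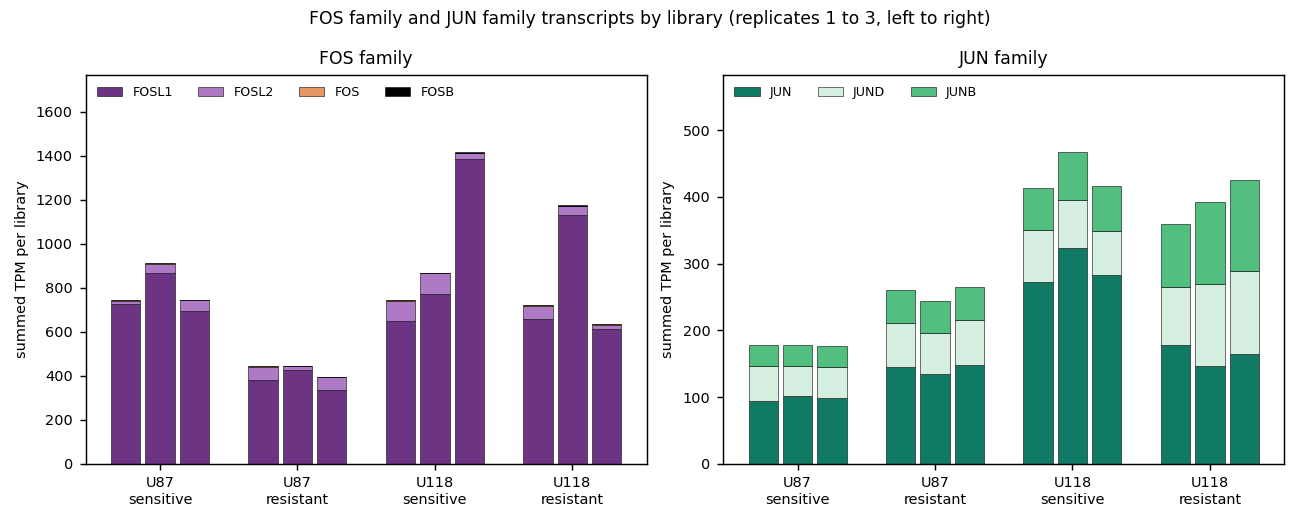
Summed TPM of the FOS family (left) and the JUN family (right) in each of the 12 libraries, split by gene, with replicates 1 to 3 from left to right in each group. FOSL1 fills most of every FOS bar, and JUN takes a smaller part of the JUN bars in U118 resistant than in U118 sensitive libraries.

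FOSL1 took 93.0 to 97.6% of the FOS family sum in U87 sensitive libraries and 85.1 to 96.0% in resistant ones. In U118 it took 87.6 to 97.8% and 91.2 to 96.6%, so the ranges overlapped in both lines. FOSL2 held nearly all of the rest. The family sum was 743, 912 and 744 TPM in U87 sensitive libraries and 443, 445 and 394 TPM in resistant ones, with no overlap. In U118 the sums overlapped, at 743 to 1416 and 636 to 1175 TPM.

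Of the JUN family, JUN (ENSG00000177606, chr1:58780788-58784327, minus strand), a single-exon gene that encodes the main transactivating partner, moved in opposite directions in the lines. U87 levels were 93.5, 101 and 98.5 TPM in the sensitive and 145, 134 and 149 TPM in the resistant libraries. All resistant libraries were higher, with a log2 fold change of 0.54 ± 0.07 (adjusted p = 0.00167) and a relative change of 0.78. U118 levels were 273, 323 and 282 TPM in the sensitive and 178, 147 and 164 TPM in the resistant libraries. All resistant libraries were lower there, with a log2 fold change of -0.84 ± 0.20 (adjusted p = 0.00708). The relative change in U118 was -0.32, and under median-ratio scaling the value was -0.33 and no longer past the threshold (adjusted p = 0.190). Levels set across the lines come from separate tables, and there the U118 resistant range overlapped the U87 resistant range and lay under the U118 sensitive one.

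JUNB (ENSG00000171223, chr19:12791496-12793315, plus strand), a weaker activator that can oppose JUN, was higher in the resistant cells of both lines. Its U87 levels were 31.9, 30.3 and 32.2 TPM in the sensitive and 50.3, 49.2 and 49.2 TPM in the resistant libraries. The libraries of a group differed little and the groups were well apart, with a log2 fold change of 0.64 ± 0.08 (adjusted p = 0.00115). Its U118 levels were 63.0, 71.5 and 67.6 TPM in the sensitive and 95.0, 124 and 136 TPM in the resistant libraries. The groups did not overlap, with a log2 fold change of 0.79 ± 0.21 (adjusted p = 0.0131). The adjusted p was 0.0663 without sensitive replicate 1 and 0.0876 without resistant replicate 3, while under median-ratio scaling the gene was called higher in U118 (1.30, adjusted p = 0.00518). The relative changes were 0.88 and 1.31. JUNB shares exon sequence with HOOK2 on the opposite strand, which read 9.46 to 25.1 TPM, and without a known strand setting reads from the 2 genes cannot be told apart.

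JUND (ENSG00000130522, chr19:18279760-18281622, minus strand), the family member least tied to stimulation, followed JUNB. In U87 it read 52.8, 45.6 and 46.4 TPM in the sensitive and 65.6, 61.0 and 67.4 TPM in the resistant libraries. The groups did not overlap, with a log2 fold change of 0.41 ± 0.09 (adjusted p = 0.0118), and without resistant replicate 3 the adjusted p was 0.0508. In U118 it read 77.9, 72.5 and 66.3 TPM in the sensitive and 86.7, 122 and 126 TPM in the resistant libraries. Resistant replicate 1 lay closest to the sensitive cells, and the log2 fold change was 0.60 ± 0.22 (adjusted p = 0.0446). That p lay above 0.05 under 7 alternatives, up to 0.203 without resistant replicate 3, while without the 2 libraries that stand apart it was 0.00138. Over the others it was 0.101, 0.124 and 0.0992 without sensitive replicate 1, 2 and 3, and 0.151 without resistant replicate 2. Under median-ratio scaling the gene was called higher in U118 (1.11, adjusted p = 0.0124). The relative changes were 0.66 and 1.12.

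The JUN family sum was 178, 177 and 177 TPM in U87 sensitive libraries and 261, 245 and 265 TPM in resistant ones. JUN took 52.5 to 57.2% of it in sensitive and 54.9 to 56.0% in resistant U87 libraries, so the JUN share overlapped while the sum was higher. The JUNB share was 17.1 to 18.2% in sensitive and 18.6 to 20.1% in resistant libraries, and the JUND share 25.7 to 29.6% and 24.9 to 25.4%, neither with overlap. In U118 the sums overlapped, at 414, 467 and 416 TPM in sensitive and 360, 393 and 426 TPM in resistant libraries, and the JUN share was lower with no overlap. It was 66.0 to 69.2% in U118 sensitive and 37.4 to 49.5% in U118 resistant libraries, and JUNB took 15.2 to 16.3% and 26.4 to 32.0%. The FOS family sum was 4.504 ± 0.55 (SD, n = 3) times the JUN family sum in U87 sensitive cells and 1.67 ± 0.17 times in U87 resistant cells. It was 2.35 ± 0.91 and 2.16 ± 0.76 times in U118 sensitive and resistant cells, where the libraries overlapped.

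Of the other zipper genes, ATF3 (ENSG00000162772, chr1:212565334-212620777, plus strand) was the AP-1 gene called in both lines. U87 levels were 2.92, 2.60 and 2.73 TPM in the sensitive and 20.5, 19.6 and 15.6 TPM in the resistant libraries. The groups were far apart, with a ratio of means of 6.76 and a log2 fold change of 2.38 ± 0.15 (adjusted p = 0.000108). U118 levels were 10.3, 9.29 and 6.69 TPM in the sensitive and 41.5, 14.4 and 24.0 TPM in the resistant libraries. The resistant libraries were all higher but spread widely, with a ratio of means of 3.04 and a log2 fold change of 1.40 ± 0.37 (adjusted p = 0.0118). In U118 the gene was not called without sensitive replicate 3 (1.23, adjusted p = 0.0593), without a filter (adjusted p = 0.0510) or without the 2 libraries that stand apart (0.86, adjusted p = 0.0161). The relative changes were 2.62 and 1.92. The motif printed above lies before the upstream of the 2 ATF3 starts in RefSeq, and TPM per gene do not say which start was used.

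MAFF (ENSG00000185022, chr22:38200767-38216511, plus strand) was called in U118. Levels there were 2.96, 3.30 and 7.08 TPM in the sensitive and 18.3, 19.4 and 23.1 TPM in the resistant libraries. The resistant libraries were all well above, with a ratio of means of 4.55 and a log2 fold change of 2.03 ± 0.31 (adjusted p = 0.000720), and the call held under every alternative run. In U87 it read 4.24, 4.202 and 3.17 TPM in the sensitive and 10.02, 2.70 and 3.52 TPM in the resistant libraries. Resistant replicate 1 alone was high, and the log2 fold change was 0.23 ± 0.40 (adjusted p = 0.681) and -0.24 without that library. MAFF overlaps PLA2G6 on the opposite strand without shared exons.

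BATF3 (ENSG00000123685, chr1:212686418-212699985, minus strand), which lies near ATF3 on the chromosome, had overlapping groups in both lines. In U87 it read 23.6, 22.8 and 18.5 TPM in the sensitive and 21.4, 21.97 and 21.5 TPM in the resistant libraries, with a log2 fold change of 0.01 ± 0.12 (95% interval -0.28 to 0.30, adjusted p = 0.963). In U118 it read 21.1, 19.3 and 6.80 TPM in the sensitive and 11.2, 13.1 and 14.5 TPM in the resistant libraries. Sensitive replicate 3, which stands apart, was the lowest of the 6, and the log2 fold change was -0.13 ± 0.39 (adjusted p = 0.797). Without the 2 libraries that stand apart it was -0.52 (adjusted p = 0.0142).

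Whether a change differed between the lines was tested as the interaction of line and phenotype over all 12 libraries, where 38.1% of 16382 genes were past the threshold and 2 of the 9 AP-1 genes were. That fit takes 1 spread per gene over both lines, while the separate fits gave JUN an SE of 0.07 in U87 and 0.20 in U118. The p-values of the interaction thus assume an equal spread in the lines. For JUN the U118 change minus the U87 change was -1.38 ± 0.18 (adjusted p = 5.86e-05), and for MAFF it was 1.802 ± 0.53 (adjusted p = 0.0179). JUN was past the threshold under every alternative run, at -1.14 under median-ratio scaling. For ATF3 the difference was -0.98 (95% interval -1.92 to -0.04, adjusted p = 0.0934), and it was past the threshold without U118 resistant replicate 1 (-1.35, adjusted p = 0.00415) and without mitochondrial genes (-0.96, adjusted p = 0.0495). For FOS it was 0.69 (0.06 to 1.31, adjusted p = 0.0789), and it was past the threshold without U118 resistant replicate 1 (0.78), without U87 sensitive replicate 1 (0.86) and under median-ratio scaling (0.83). For FOSL1 it was 0.79 (-0.07 to 1.66, adjusted p = 0.139), and 1.11 (adjusted p = 0.0205) without U118 sensitive replicate 3. JUNB (0.15, -0.30 to 0.60) and JUND (0.19, -0.30 to 0.67) had intervals on both sides of 0, which leaves room for a difference of about that size in either direction.

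The patterns of the members over the 12 libraries were compared as Pearson correlations of log2(TPM + 1), which mix line, phenotype and library and are a description only. JUNB and JUND were the most alike pair (r = 0.97), and JUNB was among the 3 genes of 16382 most like JUND. JUNB was most like RILPL1 (0.98) and LIF (0.98). LIF, a cytokine gene, read 5.80 to 6.84, 12.2 to 13.2, 15.8 to 16.8 and 38.4 to 44.5 TPM in U87 sensitive, U87 resistant, U118 sensitive and U118 resistant libraries, the same order of groups as JUNB. JUN was most like the histone genes H2BC11 (0.99) and H4C15 (0.99) and the kinase gene NIM1K (0.99). ATF3 was most like SESN2 (0.95), a stress-induced gene of TOR and redox control, which read 13.7 to 15.9 and 34.3 to 38.0 TPM in U87 and 16.1 to 24.1 and 42.6 to 54.6 TPM in U118. FOSL1 was most like FNBP1 (0.92), MAFF most like SPRED3 (0.93), BATF3 most like the pseudogene RPL18AP3 (0.95) and FOS most like LPAR2 (0.88).

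Genes that AP-1 proteins are known to bind or regulate were taken as a list of 30. Of these, 23 were tested in U87, with 6 called higher and 1 lower and a median log2 fold change of 0.21. In U118, 26 were tested, with 7 called higher and 4 lower and a median of 0.23, against -0.52 for all genes. Of all genes tested, 3.03% were called higher and 7.79% lower in U87, and 8.64% and 26.6% in U118. Median-ratio scaling changed the counts of the list to 7 calls in U87, all higher, while U118 had 11 higher and 3 lower. IL1B, an inflammatory cytokine gene, was listed at 0 in the 3 U87 sensitive libraries and read 2.58 to 2.96 TPM in the resistant ones. In U118 it read 0.33 to 0.93 and 73.0 to 107 TPM, with a log2 fold change of 5.81 ± 0.26 (adjusted p = 6.79e-07). CXCL8, a neutrophil chemokine gene, was called higher in U87 (1.53 ± 0.19, adjusted p = 0.00102) and in U118 (1.89 ± 0.23, adjusted p = 0.000206), as was IL6 in U118 (1.89 ± 0.23, adjusted p = 0.000181). The collagenase gene MMP1 went from 681 to 822 TPM in U118 sensitive to 1.28 to 5.05 TPM in U118 resistant libraries, and the stromelysin gene MMP3 from 1545 to 1728 to 22.4 to 37.3 TPM. Neither was called in U87, where the log2 fold changes were -0.40 for MMP1 and 0.12 for MMP3. TIMP1 (1.22 ± 0.08), an inhibitor of such enzymes, and HMOX1 (1.21 ± 0.07), a heme-degrading enzyme gene that small MAF dimers regulate, were called higher in U87.

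**Figure D3:**
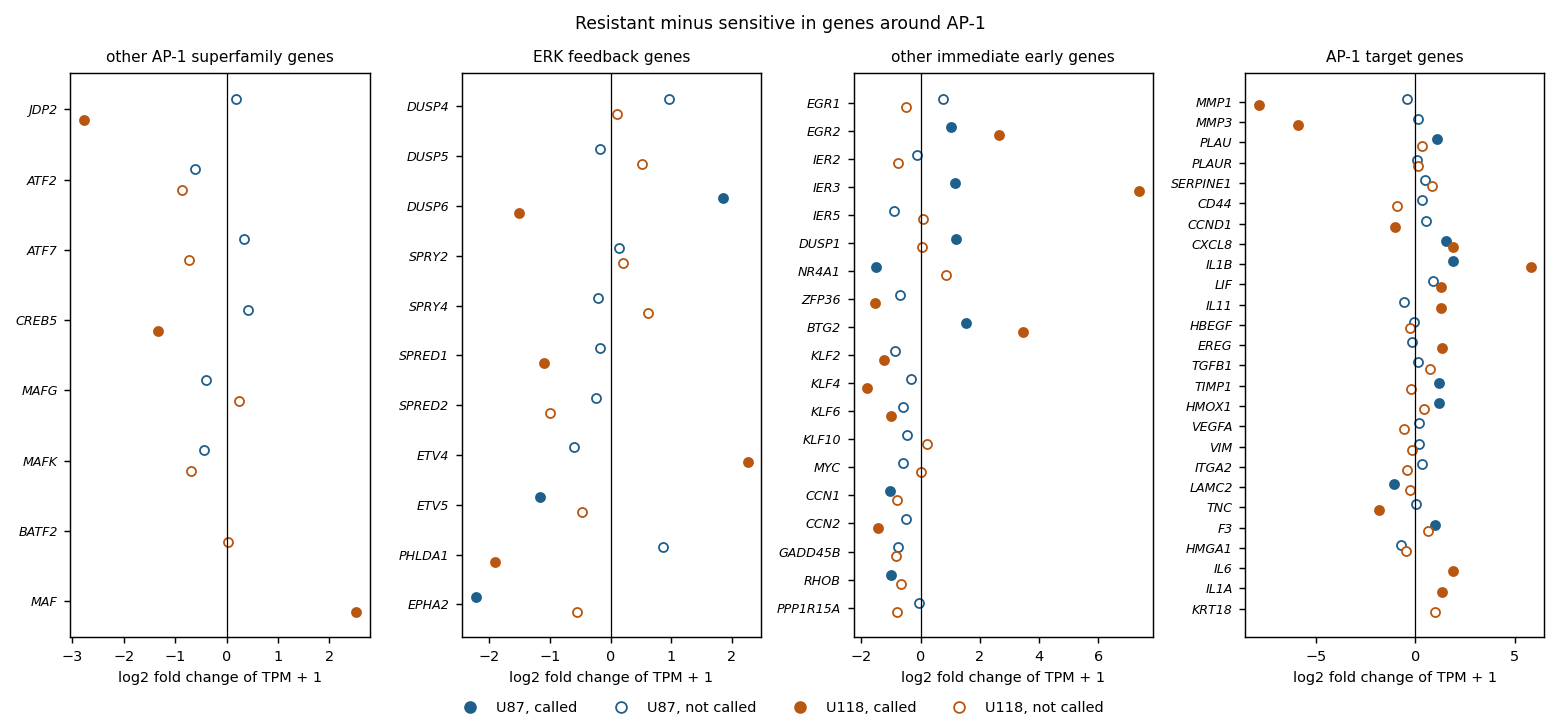
Log2 fold change of TPM + 1, resistant minus sensitive, of each tested gene in 4 lists around AP-1, in U87 (blue) and U118 (orange). Filled points are called and open points are not. Of the AP-1 target genes, IL1B and CXCL8 lie above 0 in both lines, while MMP1 and MMP3 lie at -7.86 and -5.88 in U118.

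The other immediate early genes, which the same stimuli induce, went both ways. Of 22, 19 were tested in each line, of which U87 had 4 called higher and 3 lower and U118 had 3 called higher and 5 lower, where all genes had 3.03% and 7.79% in U87 and 8.64% and 26.6% in U118. Under median-ratio scaling the balance turned, to 4 higher and 1 lower in each line. The median log2 fold changes were -0.50 and -0.67. BTG2, an antiproliferative gene, was called higher in both lines (1.53 ± 0.13 in U87, 3.45 ± 0.36 in U118), and so was IER3, a gene of cell survival (1.17 ± 0.08 in U87, 7.38 ± 0.28 in U118). IER3 read 0.17 to 0.51 TPM in U118 sensitive and 146 to 269 TPM in U118 resistant libraries. The phosphatase gene DUSP1 was called higher in U87 (1.19 ± 0.09), the nuclear receptor gene NR4A1 was called lower there (-1.51 ± 0.21), and KLF4 was called lower in U118 (-1.80 ± 0.25). The zinc finger gene EGR2 was called higher in both lines (1.03 ± 0.16 in U87, 2.65 ± 0.21 in U118). In U118, EGR2 read 0 to 0.26 TPM in sensitive and 4.88 to 7.13 TPM in resistant libraries. BTG2 read 0.09 to 0.38 and 8.20 to 23.8 TPM in those groups. BTG2, EGR2 and IER3 passed the filter in U118 only through the resistant libraries.

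Upstream of AP-1, the MAPK pathway list of 20 had 18 genes tested in each line, of which 1 was called in U87 and 4 were called in U118, all lower. For this and the next lists, the shares of all genes called higher and lower were 3.03% and 7.79% in U87. In U118 those shares were 8.64% and 26.6%. Under median-ratio scaling the U87 call in the MAPK list was lost, and U118 had 1 of its genes called higher and 1 lower. MAP2K3, which activates p38, was the one in U87 (-1.23 ± 0.10), and MAP3K5 (-2.14 ± 0.23) and MAPK14 (-1.23 ± 0.31) had the largest changes in U118, of which MAPK14 was not called under that scaling (-0.75). Of the 12 ERK feedback genes, 11 were tested, with 1 higher and 2 lower among U87 calls and 1 higher and 3 lower among U118 calls. Under median-ratio scaling these became 3 higher and 1 lower, and 3 higher and 2 lower. DUSP6, a phosphatase gene of ERK, was called in opposite directions, at 1.85 ± 0.21 in U87 and -1.51 ± 0.23 in U118. EPHA2 was called lower in U87 (-2.23 ± 0.14), and PHLDA1 was called lower in U118 (-1.91 ± 0.22). ETV4 was called higher in U118, from 8.25 to 9.10 TPM in sensitive to 34.1 to 52.4 TPM in resistant libraries. All 6 SRF and MRTF factors were tested, with 1 called lower in each line, ELK4 in U87 (-1.31 ± 0.24) and ELK3 in U118 (-2.95 ± 0.26).

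Of 11 other AP-1 superfamily genes, 6 were tested in U87, with log2 fold changes from -0.61 for ATF2 (adjusted p = 0.0332) to 0.41 for CREB5 (adjusted p = 0.142), all under the fold threshold. In U118, 8 were tested, with 1 called higher and 2 lower, where 35.3% of all genes were called, and median-ratio scaling left 1 in each direction. JDP2, a repressor that pairs with JUN, read 19.5 to 28.3 TPM in U118 sensitive and 2.23 to 3.61 TPM in U118 resistant libraries (-2.78 ± 0.26), and MAF went from 0.82 to 1.15 TPM to 7.28 to 18.2 TPM (2.52 ± 0.33). CREB5 was also called lower in U118 (-1.325, adjusted p = 0.0021), but not under median-ratio scaling (-0.86). Of the 6 partners of small MAF proteins, 4 were tested in each line. Over all genes, 3.03% were called higher in U87 and 26.6% lower in U118. NFE2 was called higher in U87 (1.27 ± 0.27), from 0.37 to 0.85 TPM in sensitive to 2.14 to 4.89 TPM in resistant libraries. It passed the filter there only through the resistant libraries. BACH1, a repressor that pairs with MAFF, was called lower in U118 (-1.43 ± 0.24) but not under median-ratio scaling (-0.99). Under that scaling 3 of these partners were called higher in U87.

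ATF3 is also a gene of the ATF4 and CHOP stress response, and 12 other genes of that response were tested in each line. In U87, 3 were called higher and 1 lower, with a median log2 fold change of 0.59. In U118, 2 were called higher and 1 lower, with a median of 0.10. The shares of all genes called higher and lower were 3.03% and 7.79% in U87, and 8.64% and 26.6% in U118. Under median-ratio scaling 5 of the 12 genes were higher and 1 lower in U87, and 3 were higher in U118. DDIT4, an inhibitor of TOR signalling, was called higher in both (1.45 ± 0.09 and 1.90 ± 0.39), as was SESN2 (1.22 ± 0.10 and 1.17 ± 0.23). TRIB3, a target of ATF4 and CHOP, was called lower in both, at -3.15 ± 0.15 in U87 and -1.02 ± 0.31 in U118, where it was not past the threshold under median-ratio scaling (-0.52, adjusted p = 0.254).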

How the data were processed

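The authors deposited gene-level TPM, 1 table per line, from mRNA libraries (VAHTS kit, Trizol extraction). The submitters' processing notes name FastQC 0.11.2, Trimmomatic 0.36, HISAT2 2.0, bedtools 2.26.0 and GRCh38, with no roles. The tool that made the TPM, its annotation and the strand setting are not given in the sources used here. TPM sum to the same total in every library, so a change in abundant transcripts shifts all others, and no depth or detection limit can be given.

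Of 58174 identifiers, 57392 matched a symbol in the name table. Positions are from GENCODE release 29. Values were fitted as log2(TPM + 1) with limma 3.58.1 in R 4.3.3 (eBayes with trend), each line in its own table and the interaction over all 12 libraries. The filter was 1 TPM in 3 libraries. The fit was tested on simulated data with large changes planted in well-expressed genes, which does not cover small changes or genes near 1 TPM. Groups came from the labels.

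The members, the gene lists and the tests were chosen with earlier results of these data known. All 10 members were named; from each list, the called genes with the largest change, at most 4 per line; and for each member the genes most like it, at most 3. Some genes are not reported here. Alternatives were a pseudocount of 0.1, no filter, a mean of 10 TPM, median-ratio scaling, a replicate block, no trend, no mitochondrial genes, no fold threshold and each library left out. Leaving out both U118 libraries that stand apart was added after the data were seen. Figures used matplotlib 3.10.9 and tables pandas 2.3.3 in Python 3.11.15.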

Additional observations from a re-analysis of the deposited data

Results flagged for a closer look

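The values here are the log2 fold change in U118 minus that in U87, for named genes whose difference between the lines was past an adjusted p of 0.05 in limma's interaction test. Among the 10 AP-1 genes these were JUN (-1.38) and MAFF (1.802).

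Among their relatives and partners, the difference was -2.96 for JDP2 and -1.32 for BACH1. Among the MAPK pathway and its feedback it was 1.51 for MAP2K3, -2.05 for MAP3K5, -3.36 for DUSP6, 1.68 for EPHA2, 2.87 for ETV4 and -2.78 for PHLDA1, and it was -2.65 for the ELK3 factor.

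Among immediate early genes it was 6.21 for IER3, 2.38 for NR4A1, 1.91 for BTG2, 1.61 for EGR2, -1.13 for DUSP1 and -1.47 for KLF4. Among AP-1 target genes it was -7.45 for MMP1, -6.00 for MMP3, 3.88 for IL1B, -1.45 for TIMP1 and -0.75 for HMOX1, and for the stress gene TRIB3 it was 2.12. Over all genes tested, 38.1% passed that test. BTG2, EGR2, IER3, IL1B and TRIB3 were called in the same direction in both lines, by unequal amounts. Others, among them EPHA2, HMOX1 and MMP1, had changes of the same sign in both lines but were not called in both.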

How the results depend on the processing

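In U87, 4 AP-1 genes were higher and 1 lower with no fold threshold, and leaving out 1 library gave 0 to 1 called lower. Over all genes, the higher and lower counts were 175 and 630 at a mean of 10 TPM, 689 and 528 under median-ratio scaling, 1306 and 4107 with no fold threshold, and 274 to 480 and 826 to 1283 with 1 library left out. FOS, never past the threshold, turned positive under median-ratio scaling (0.10), without mitochondrial genes (0.006) and without 1 library (-0.26 to 0.068). With 1 library left out, FOSL2 ran from -0.32 to 0.79, MAFF from -0.24 to 0.54 and BATF3 from -0.094 to 0.073.

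In U118, the AP-1 genes called higher were 1 with no filter, 4 under median-ratio scaling, 5 with no fold threshold, 1 without both libraries that stand apart and 1 to 2 with 1 library left out. Those called lower were 1 with no fold threshold and 1 without both libraries. Over all genes, the higher and lower counts were 536 and 2152 at a mean of 10 TPM and 2258 and 2113 under median-ratio scaling. The higher count was 702 without both libraries and 767 to 1353 with 1 left out. FOSL1 was 0.32 under median-ratio scaling, 0.23 without both libraries and -0.48 to 0.12 with 1 left out. BATF3 was 0.36 under that scaling, 0.062 without mitochondrial genes and -0.61 to 0.14 with 1 left out. For the difference between the lines, 1 AP-1 gene passed at a mean of 10 TPM, a filter that MAFF did not reach, so it was not tested. With 1 library left out, 2 to 4 AP-1 genes passed. Over all genes 2709 passed at that mean and 4562 to 8418 with 1 library left out. The BATF3 difference was 0.08 under median-ratio scaling and -0.62 to 0.13 with 1 library left out. The cause of these changes was not tested.

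With the replicate number as a block, the calls over all genes were 414 higher and 1040 lower in U87, 1363 and 4218 in U118, and 6018 for the difference between the lines. Same-numbered libraries deviated with correlations of 0.01, -0.07 and -0.04 in U87 and 0.14, 0.05 and 0.10 in U118, so the numbers were not taken as pairs. Each U118 library correlated best with its own number, a hint from the data only, and U87 libraries did not. Under the block, FOSL2 in U118 had an adjusted p of 0.00856 and JUND one of 0.0563.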
